A study of Homo sapiens with 10 samples.

Results

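The untreated transcriptome of HEK293, a human embryonic kidney cell line, was described from 2 of the 10 libraries of the series. Both were made from polyadenylated RNA of cells that received no modified nucleotide, no ultraviolet crosslinking and no siRNA, and were chosen by those labels alone. They carry the letters A and B. The cells were grown in DMEM with 10% FCS and antibiotics. The remaining 8 libraries, which had 4-thiouridine, crosslinking or siRNA transfection, were used only to know which transcripts the files can list, and no treatment was compared. Nothing in the labels says whether A and B came from separate cultures, so the spread between them may be technical.

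HEK293 descends from cultured human embryonic kidney cells transformed with sheared adenovirus DNA. The line is widely used to produce proteins and to study transfected receptors and channels, for which the set of receptors, G proteins and channels that the cells make themselves is the background. Its tissue of origin within the kidney preparation has been debated because neuronal and adrenal genes have been seen in it. Within a gene family, paralogues encode related proteins that often differ in tissue, in regulation or in substrate, so the member that a cell uses is part of its identity.

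Each deposited file gives tags per transcript and an expression value in tags per 100 nt of transcript per 1000000 tags, called the level below. It is divided by length so that genes of different length can be set side by side. The ratio of the libraries still moved with GC content and length, as given below. A comparison between genes can therefore carry such effects. Library A held 3099769 tags on 20407 transcripts and library B held 2396069 tags on 19401 transcripts. All 10 files together listed 25005 transcripts. Current symbols were found for 15886 of them in RefSeq and for 134 more in GENCODE, which gave 16009 named genes. With 10 exceptions each named gene was represented by 1 transcript. The unnamed accessions held 8.87% of the tags of A and 7.11% of those of B. A gene was called detected with at least 3 tags in each library, trace with fewer, and without a tag where neither library listed it. In 17.9% of the named genes some tags had been split with other transcripts by the authors' counting. Pairs of values below give library A first.

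A low value in these files was not evidence that a cell lacked a transcript. Of 15 housekeeping reference genes, whose median level was 8.9, 13 were detected, and the other two were near 0. ACTB, the cytoplasmic beta-actin, had 11 and 0.25 tags. PGK1, the phosphoglycerate kinase of glycolysis, had no tag in either library and 1 tag in 1 of the other 8 libraries. Other genes of general use were also low. LDHA, the lactate dehydrogenase subunit of glycolytic tissue, had 4 and 8 tags, KRT8, the keratin that pairs with KRT18, had 1 and 1 tags, RPL7A of the large ribosomal subunit had 1 and 3 tags, and VIM, the mesenchymal filament vimentin, had 48 and 0 tags. HNRNPA1, an abundant splicing factor, had 41 and 15 tags, and EEF1A1, the main elongation factor of most tissues, had 56.5 and 83 tags. GENCODE names 10 pseudogenes after ACTB, 37 after RPL7A, 39 after EEF1A1, 50 after KRT8 and 74 after HNRNPA1. It names 62 after GAPDH, which had 309 and 61 tags, and 0 after VIM. Over the named genes with 1 transcript, the detected share was higher with pseudogenes than without. It was 71.6% of 14499 genes with 0, 91.3% of 389 with 3 to 9 and 93.8% of 97 with 10 or more. The median level of the detected genes of those classes also rose, at 0.935, 4.19 and 15.2. The shares therefore do not separate pseudogenes from level. Tags were split for 16.8%, 33.9% and 55.7% of the genes of those classes. The part of split or discarded tags and of unnamed transcripts in the low values was not tested. A gene without a tag is therefore given as listed at 0, with the level that 3 tags would have given as its upper limit for counting error only.

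Across all 16009 named genes, 73.4% were detected, 10.1% had no tag in both libraries and 2644 were trace. Over all transcripts, 14839 were detected. Levels spanned more than 4 orders of magnitude. Among the 11749 detected genes, 775 had a mean level under 0.1, 4981 lay between 0.1 and 1, 5200 between 1 and 10, 753 between 10 and 100, and 40 at 100 or more. The class from 1 to 10 took the largest part of the tags, at 44.9% in A and 47.7% in B. The 40 genes at 100 or more took 6.93% and 5.38%. Their median transcript length was 676.5 nt, against 4209 nt in the class under 0.1. The median level of all named genes was 0.525, which serves as the base for the gene lists below. The 10 most abundant features held 3.28% of the tags of A and 2.83% of those of B, so no transcript dominated either library.

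Protein synthesis led the levels. Of the 25 genes with the highest mean level, 20 encoded ribosomal proteins. Detection covered 75 of the 79 named ribosomal protein genes, beside 73.4% of all named genes. RPS16 and RPLP1, of the small subunit and of the stalk of the large subunit, came first, with levels of 547 and 236 for RPS16 and 568 and 214 for RPLP1. RPL27 stood at 355 and 267 and RPL11 at 256 and 309. RPS16 and RPLP1 were each over 2-fold higher in A, whereas RPL11 was higher in B, so the order among the highest genes did not hold between the libraries.

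The other 5 of the 25 highest were CKB, MIF, TPT1, EEF2 and LDHB. CKB, the brain-type creatine kinase that regenerates ATP from phosphocreatine, had 15118 and 5616.5 tags and levels of 341 and 164. MIF, a cytokine with tautomerase activity, stood at 276 and 80.5. TPT1, a growth-related translationally controlled protein, stood at 175 and 150.2. EEF2, the elongation factor that moves the ribosome along the mRNA, stood at 176 and 101 and had 17257 and 7649 tags, the most of any gene in A, whereas in B HSP90AA1 had the most. LDHB, the lactate dehydrogenase subunit of oxidative tissue, stood at 113 and 151. By tags instead of level, the 15 highest genes also included the chaperones HSP90AA1 with 11430 and 12432 tags, HSP90AB1 with 7479.5 and 6678 tags and HSPA8 with 5826 and 5503.5 tags, the RNA-binding protein HNRNPA2B1 with 5289 and 6591 tags, the nucleolar protein NCL with 4982 and 6236 tags and the bromodomain protein BRD2 with 5645 and 6066 tags. The lists by level and by tags shared 8 genes.

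Promoters of genes at the extremes are shown for what their sequence holds. CKB and CKM belong to the same family and lay at opposite ends of the range of levels, RPS16 had the highest mean level, and UCHL1 led the neuronal list described below. Each line gives the 250 bases before the RefSeq start on GRCh38.p14, read 5′ to 3′ along the gene, with every CG dinucleotide and every TATAAA in capitals.
CKB, chr14:103522831-103523080, minus strand: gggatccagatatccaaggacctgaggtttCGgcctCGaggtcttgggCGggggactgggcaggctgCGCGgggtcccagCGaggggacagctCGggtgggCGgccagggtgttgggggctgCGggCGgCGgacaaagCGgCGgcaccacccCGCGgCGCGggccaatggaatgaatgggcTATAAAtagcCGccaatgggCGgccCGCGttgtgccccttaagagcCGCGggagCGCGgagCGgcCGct
CKM, chr19:45322876-45323125, minus strand: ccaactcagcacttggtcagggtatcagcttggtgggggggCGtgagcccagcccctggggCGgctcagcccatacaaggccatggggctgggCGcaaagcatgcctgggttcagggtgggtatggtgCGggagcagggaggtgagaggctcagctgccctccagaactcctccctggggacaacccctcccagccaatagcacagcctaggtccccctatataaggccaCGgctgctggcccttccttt
RPS16, chr19:39435950-39436199, minus strand: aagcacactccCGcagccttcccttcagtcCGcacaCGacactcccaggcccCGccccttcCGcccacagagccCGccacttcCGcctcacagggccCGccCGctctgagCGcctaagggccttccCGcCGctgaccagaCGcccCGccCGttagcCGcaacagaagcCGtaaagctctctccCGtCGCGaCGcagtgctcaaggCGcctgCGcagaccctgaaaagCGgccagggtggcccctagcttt
UCHL1, chr4:41256678-41256927, plus strand: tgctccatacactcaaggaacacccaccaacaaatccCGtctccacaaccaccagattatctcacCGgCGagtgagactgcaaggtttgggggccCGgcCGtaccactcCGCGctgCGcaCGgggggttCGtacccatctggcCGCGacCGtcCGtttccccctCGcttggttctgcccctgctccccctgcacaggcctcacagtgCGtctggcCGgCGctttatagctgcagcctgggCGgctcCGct
The CKB stretch held 27 CG dinucleotides and 1 TATAAA, 69 bases before the start. The CKM stretch held 5 CG dinucleotides and no TATAAA. Only that exact motif was counted, and the CKM stretch holds the similar letters tatataa nearer its start. The CKB motif lies outside the range of 40 to 20 bases counted below. RPS16 held 24 and UCHL1 20 CG dinucleotides, neither with a TATAAA. The motif CGGAAG, the core of the sites of ETS factors, occurred 2 times on the reverse strand of the RPS16 stretch and in none of the other three on either strand. CKM, the muscle creatine kinase, was listed with 1.5 and 1 tags.

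The same features were counted in the RefSeq windows of 300 bases (250 before and 50 after the start) of 12832 of the 15938 protein-coding named genes, 80.5%, with genes of several starts averaged over their windows. Windows existed for 76.8% of the genes without a tag, 74.3% of the trace genes and 75.5% of those under 0.1. These shares are under 80%, so the count is void for those classes and is not given. Between the other classes the ratio of observed to expected CG dinucleotides differed little, with medians of 0.786 at levels of 0.1 to 1, 0.855 at 1 to 10, 0.886 at 10 to 100 and 0.901 at 100 or more. CGGAAG on either strand, which itself holds a CG, was found in 26.4%, 37.6%, 43.1% and 70.3% of the genes of those classes, against 27.2% over all genes with a window. In the 61 detected ribosomal protein genes with a window it was found in 63.9%. These genes overlap with the class at 100 or more, since 20 of the 25 highest levels belonged to ribosomal protein genes. TATAAA between 40 and 20 bases before the start was found in 1.67%, 1.20%, 3.84% and 3.13%, against 3.02% over all genes with a window. The last of these classes held 32 genes with a window. The shares over all genes with a window include the classes not given, so they are no base for the given classes alone. A match is a description of letters, not of a bound site.

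Libraries A and B gave the same broad order of genes. Across 14835 features with at least 3 tags in each library, the log2 levels had a Pearson correlation of 0.942 and the levels a Spearman correlation of 0.936, as descriptions over genes of a pair of libraries. The level differed by less than 2-fold for 83.1% of them and by more than 4-fold for 1.42%. The median size of the log2 ratio was 0.506. The edgeR common biological coefficient of variation of the pair was 0.314. The difference still exceeded counting error for many genes: of 14660 features with at least 10 tags over both libraries, 49% lay outside the exact 95% counting interval, 24% higher in A and 25% higher in B, where counting alone would give 5%.

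**Figure D1:**
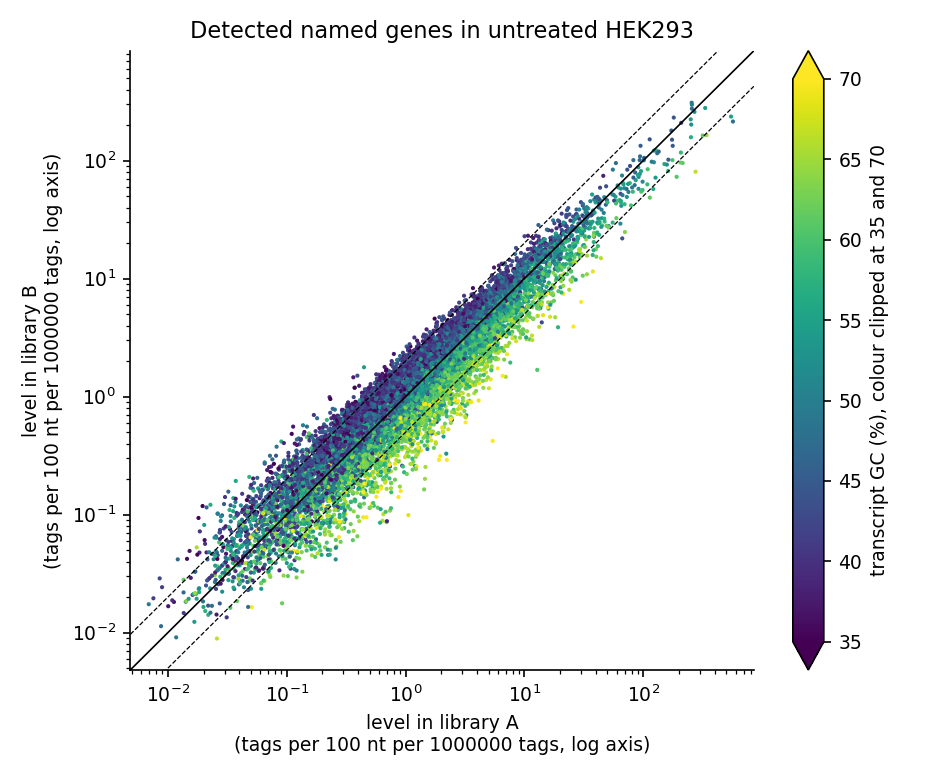
Level of each detected named gene with a known GC content in library A against library B, both log axes in tags per 100 nt per 1000000 tags; the solid line marks equal levels, the dashed lines a 2-fold difference, and colour the GC content of the transcript. Points of high GC lie mostly below the solid line and points of low GC above it, and 83.1% of all features with at least 3 tags in each library, named or not, differed by less than 2-fold.

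The direction of the difference followed the base composition of the transcripts. The Spearman correlation of the log2 ratio of B over A was −0.690 with GC content over 11370 genes and 0.388 with transcript length over 14660 features. In 5 equal classes of genes from the lowest to the highest GC, the median log2 ratio was 0.55, 0.42, 0.17, −0.25 and −0.79. In 5 equal classes of transcript length it went from −0.44 for the shortest to 0.41 for the longest. Composition and length each moved with the ratio at a given value of the other: with 3 equal classes of each, the median among the shortest genes was 0.32 at the lowest GC and −0.75 at the highest, and among the longest it was 0.63 and −0.32. When the expected share of A was taken within 20 classes of GC, 3641 of 11370 genes (32.0%) lay outside the counting interval, against 5948 (52.3%) without the classes.

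**Figure D2:**
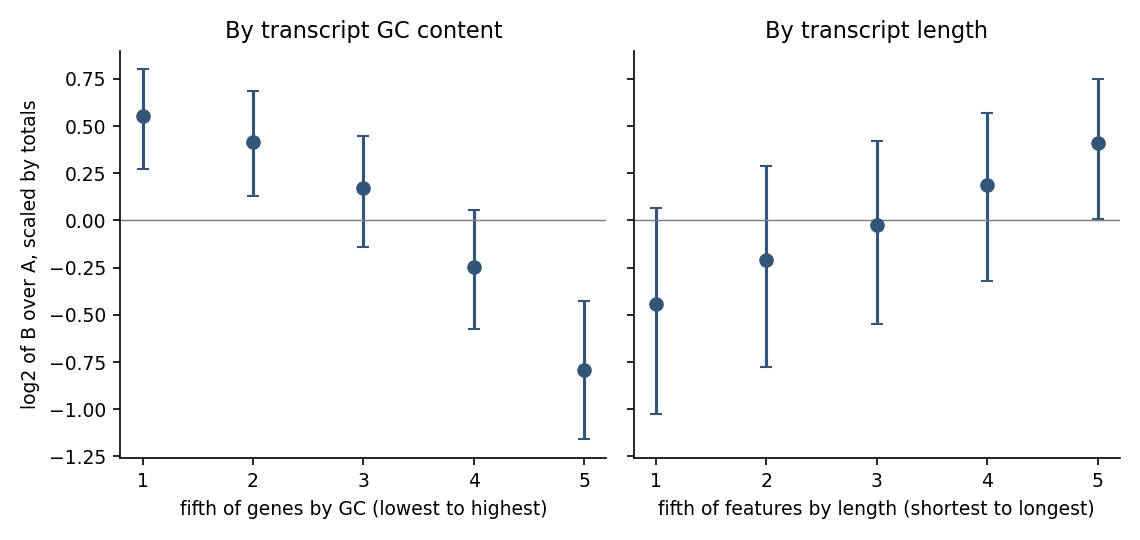
Median log2 ratio of B over A (points) with the 25th and 75th percentiles (bars), in 5 equal classes of genes by transcript GC content (left) and of features by transcript length (right), after scaling by the library totals. The median falls from 0.55 to −0.79 from the lowest to the highest GC and rises from −0.44 to 0.41 from the shortest to the longest transcripts.

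The 10 largest ratios in each direction, among genes with at least 50 tags, showed the same. The 10 genes higher in A had a GC content of 60.5% to 74.5%. They were led by PCSK1N, the proSAAS inhibitor of prohormone convertase, with 166 and 10 tags and a log2 ratio of −3.68 (95% counting interval −4.77 to −2.77). HES4, a repressor of the hairy family, had 845 and 99 tags. The others were CTU1, SCAND1, CTXN1, DGCR6, FJX1, INAFM1, ADAT3 and ABHD16B. The 10 genes higher in B had a GC content of 35.03% to 54.2%. They were led by ANKRD12, an ankyrin repeat protein, with 36 and 122 tags and a log2 ratio of 2.13 (1.59 to 2.71). The others were LSMEM1, SAMD12, CDK14, SLC36A4, KRCC1, PPP1R10, INTS6L, ASAP2 and TRPS1.

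Paralogue choice was read in 114 families, of which 105 had at least 2 listed members and 1 of them detected. The member with the highest level was the same in A and B in 83 families. In 72 families it also stood above the next member by more than counting error in both libraries. It held over 50% of the summed level of the family in both libraries in 66 families, and over 90% in 15. In the other 22 families A and B put different members first, and in 20 of these the leading member in A had the more GC-rich transcript. Among 87 families in which no member had 3 or more named pseudogenes, 66 had the same leading member in both libraries and in 58 it was clear by counting. Of the 18 families with such a member, 17 had the same leading member, but the low values of ACTB, LDHA and EEF1A1 fall in these families.

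**Figure D3:**
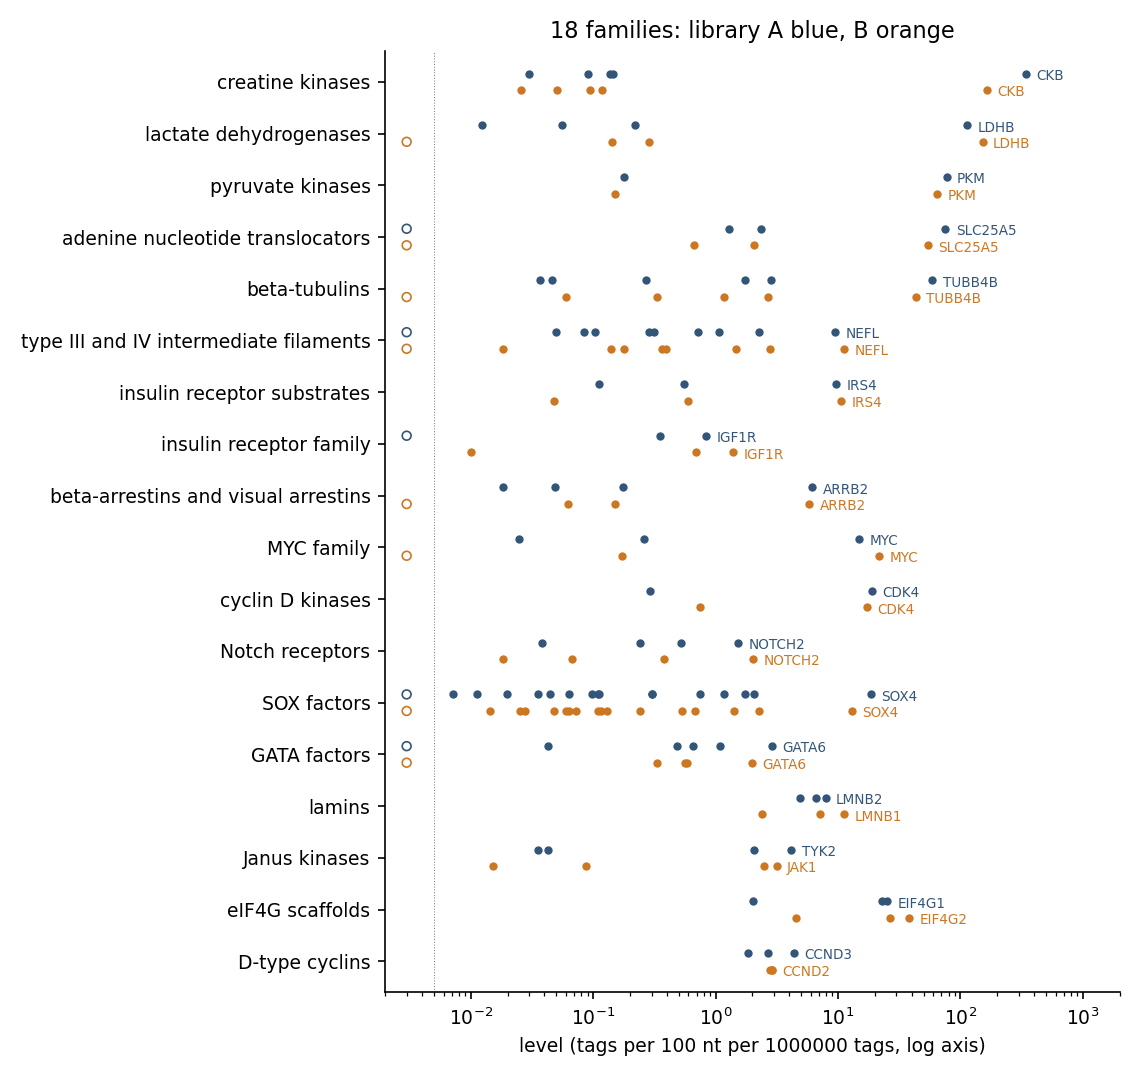
Level of every listed member of 18 families (log axis, tags per 100 nt per 1000000 tags) in library A (blue, upper row of each family) and library B (orange, lower row), with the leading member of each library named; open circles left of the dotted line mark libraries in which at least 1 member had no tag. Leading members such as CKB, LDHB, TUBB4B and IRS4 stand apart from the other members in both libraries, whereas the lamins, Janus kinases, eIF4G scaffolds and D-type cyclins had different leading members in A and B.

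In energy metabolism the margin of the leading member ranged from narrow to wide. CKB held 99.9% in A and 99.8% in B of the creatine kinase level, and the mitochondrial CKMT1A stood at 0.145 and 0.117. PKM, the pyruvate kinase of most tissues, stood at 77.2 and 64.5, above the liver and red cell form PKLR at 0.18 and 0.15. HK1, the hexokinase of most tissues, stood at 4.35 and 4.63, above HK2 at 1.39 and 1.28, 3.12-fold in A (95% counting interval 2.71 to 3.6) and 3.61-fold in B (3.07 to 4.27). HKDC1 was listed at 0. PFKP, the platelet-type phosphofructokinase, led at 10.3 and 9.77, with the liver type PFKL at 8.91 and 4.27 and the muscle type PFKM at 3.08 and 3.32. PFKP exceeded PFKL only 1.16-fold in A (1.05 to 1.28) and 2.29-fold in B (1.99 to 2.64). SLC2A1, the basal glucose transporter GLUT1, held 62.5% in A and 55.7% in B of its family, at 5.38 and 3.04, and SLC2A2 of liver and beta cells was listed at 0. In the mitochondrion, SLC25A5 led the ADP/ATP carriers at 75.1 and 54.2, SLC25A4 followed at 2.34 and 2.08, and the testis form SLC25A31 was listed at 0. COX6B1 of cytochrome c oxidase stood at 95.8 and 81.4 and its testis form COX6B2 at 0.0384 and 0.0746.

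Other metabolic families hold the genes named above as near 0, or relatives of them. LDHB stood at 113 and 151, LDHC, the testis form, at 0.22 and 0.285 and LDHA at 0.0555 and 0.144. The enolase that led was ENO2, the neuron-type form, at 3.09 and 3.1, before ENO1, the form of most tissues, at 2.33 and 1.29. ALDOA, the aldolase of muscle and most tissues, led at 2.62 and 1.58, before ALDOC at 0.484 and 0.376. Of the pair of phosphoglycerate kinases, neither was detected, so no choice could be read. ENO1 has 4 pseudogenes in GENCODE and LDHA 6, and their part was not tested.

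Among translation factors, EIF4A3, the helicase of the exon junction complex, stood at 25.6 and 26.2, above the initiation helicases EIF4A1 at 12.6 and 17.8 and EIF4A2 at 10.1 and 12.7. EIF4A1 has 13 named pseudogenes, EIF4A2 has 5 and had split tags, and EIF4A3 has 1. The part of this in the order of the helicases was not tested. PABPC1, the main cytoplasmic poly(A)-binding protein, stood at 30.7 and 34.4 and PABPC4 at 14.1 and 17.2. EIF4E2, a cap-binding protein that represses translation, stood at 8.18 and 8.4, before EIF4E3 at 0.436 and 0.745 and the canonical EIF4E at 0.474 and 0.461, whose tags were partly split. Of the eIF4G scaffolds, EIF4G1 stood at 25.2 and 26.5 and EIF4G2 at 22.8 and 38.1, so the first place changed between the libraries. EEF1A2, the elongation factor of muscle and neurons, stood at 7.38 and 3.87, above EEF1A1 at 0.517 and 0.982. EEF1A1 has 39 named pseudogenes and both genes had split tags, and the part of this in their order was not tested.

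The cytoskeleton showed clear choices among tubulins and neuronal filaments. TUBA1B led the alpha-tubulins at 72.8 and 49.2, before TUBA1A at 18.2 and 13.4 and TUBA1C at 16.2 and 11.5, all with split tags, and TUBA3C and TUBA3E were listed at 0. TUBB4B held 92.2% in A and 91.1% in B of the listed beta-tubulin level, at 58.97 and 43.3. TUBB2A followed at 2.85 and 2.68, the neuronal TUBB3 had 2 and 0 tags, and TUBB was not analysed here. NEFL, the light neurofilament, led the type III and IV filaments at 9.45 and 11.2, 4.19-fold in A (95% counting interval 3.62 to 4.85) and 3.99-fold in B (3.44 to 4.65) above the neuronal alpha-internexin INA at 2.26 and 2.8. ACTG1, the cytoplasmic gamma-actin, led the actins at 3.24 and 0.696, before the smooth muscle ACTA2 at 0.843 and 0.627, but the interval in B, 0.645 to 1.93-fold, included equal levels. ACTG2 was listed at 0. Non-muscle myosins MYH9 at 7.23 and 6.5 and MYH10 at 5.43 and 7.63 stood in different order in A and B, and the sarcomeric forms MYH1, MYH2, MYH4, MYH6, MYH7 and MYH8 were listed at 0. The embryonic sarcomeric form MYH3, whose tags were partly split, stood at 0.134 and 0.237. LMNB2 led the lamins in A and LMNB1 in B.

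Pumps and calcium handling were carried by the forms of most tissues. The beta subunit of the sodium pump with the highest level was ATP1B3 at 12.1 and 17.8, followed by ATP1B1 at 3.16 and 4.62. ATP2A2, the SERCA2 pump that fills the endoplasmic reticulum, held 93.5% in A and 96.3% in B of its family. At the plasma membrane ATP2B1 stood at 2.09 and 3.22 and ATP2B4 at 1.23 and 1.47, while ATP2B2 was listed at 0. Of the channels that release stored calcium, ITPR3 led at 1.79 and 1.53, before ITPR1 at 0.449 and 0.553. Ryanodine receptors were far lower, with RYR2 at 0.0651 and 0.0905. STIM1, the store sensor, stood at 1.29 and 1.54 and its pore partner ORAI1 at 3.41 and 1.42.

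At the cell surface, CDH2, N-cadherin, led the cadherins at 2.23 and 3.36, before CDH24 at 0.814 and 0.679. CDH8, CDH11, CDH12, CDH16 and CDH20 were listed at 0. ITGB1 held 77.3% in A and 83.8% in B of the integrin beta level, at 4.16 and 5.81, before ITGB5 at 1.07 and 1.05. The alpha subunits were shared among many members, with ITGAE at 1.2 and 1.3 and the laminin receptor subunit ITGA6 at 0.844 and 1.11, and no member was clear by counting. GJA1, connexin 43, led the gap junction proteins at 1.55 and 1.88, before GJC1 at 0.966 and 0.976, and GJA5 and GJD2 were listed at 0.

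In chromatin and the cell cycle, most leading members were clear by counting in both libraries. DNMT1, the maintenance DNA methyltransferase, stood at 8.18 and 7.49 and DNMT3B, a de novo enzyme of early embryos, at 1.56 and 1.61, while DNMT3L was listed at 0. EZH2, the polycomb methyltransferase of dividing cells, stood at 3.28 and 4.77, above EZH1 at 1.03 and 1.18. All 11 histone deacetylases were detected, beside 73.4% of all named genes. They were led by HDAC1 at 8.28 and 10.9 and HDAC3 at 6.7 and 6.12. CDK4 held 98.5% in A and 95.9% in B of the cyclin D kinase level, at 18.9 and 17.3, against CDK6 at 0.291 and 0.745. CCNA2, the somatic cyclin A, stood at 3.9 and 4.6 and the germ line CCNA1 at 0.279 and 0.085. CCNB1 led the B-type cyclins at 11.3 and 14.9, before CCNB2 at 7.97 and 9.36, and CCNE1 the E-type cyclins at 4.66 and 4.28, before CCNE2 at 1.15 and 2.0. The D-type cyclins had no common leading member: CCND3 stood at 4.37 and 2.78, CCND1 at 2.67 and 2.88 and CCND2 at 1.83 and 2.88.

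Inhibitors of the cell cycle were expressed as well. CDKN2A, which encodes p16 and ARF, led the CDK inhibitors at 19.96 and 6.33, before CDKN2C at 6.96 and 4.86. CDKN2A was over 3-fold higher in A, with 889 and 218 tags. In the retinoblastoma family RBL2 stood at 1.32 and 1.89 and RB1 at 0.798 and 2.3, in different order in A and B. MYC held 98.1% in A and 99.2% in B of its family, at 14.9 and 21.5, and MYCL followed at 0.258 and 0.173. Among the BCL2 proteins that block apoptosis MCL1 led at 6.19 and 7.95, before BCL2L2 at 1.16 and 1.01, BCL2 itself stood at 0.0696 and 0.167, and BCL2A1 was listed at 0.

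In growth factor signalling, 1 substrate stood well above its relatives. IRS4, an insulin receptor substrate of the hypothalamus and of embryonic cells, stood at 9.67 and 10.6 and held 93.6% in A and 94.3% in B of its family, against IRS2 at 0.547 and 0.595 and IRS1 at 0.111 and 0.0477. IGF1R stood at 0.838 and 1.39 and INSR at 0.349 and 0.696, so the level of IRS4 was above that of both receptors. ERBB2 led its family at 1.84 and 1.32, before ERBB3 at 0.247 and 0.364. The receptor EGFR was detected at only 0.046 and 0.119. FGFR1 at 2.18 and 1.71 and FGFR3 at 1.95 and 1.16 led the FGF receptors without a clear order in A. Of the 5 PDGF and KIT receptors only KIT was detected, at 0.264 and 0.446, beside 73.4% of all named genes. EPHA7, an ephrin receptor of the developing nervous system, led 14 EPH receptors at 2.22 and 3.24, before EPHB4 at 1.54 and 1.14.

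Downstream kinases were less clear. HRAS led the RAS proteins at 6.24 and 5.14, before NRAS at 2.3 and 3.2. AKT1 stood at 10.3 and 7.71 and AKT2 at 9.19 and 5.67. The leading Janus kinase differed between the libraries, with TYK2 at 4.16 and 2.48 and JAK1 at 2.07 and 3.15. TYK2, which led in A, had a GC content of 61.3% and JAK1 of 46.2%.

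Developmental pathways were represented by several receptors each. FZD8 led the Frizzled receptors for WNT ligands at 5.55 and 2.57, before FZD6 at 0.882 and 1.26. Of the 10 Frizzled receptors, 9 were detected, beside 73.4% of all named genes. NOTCH2 stood at 1.53 and 2.01, before NOTCH1 at 0.523 and 0.381. All 8 SMAD factors were detected, beside the same 73.4%, at levels between 0.231 and 1.32, none of them clearly first. TEAD4 led the partners of YAP1 at 1.47 and 1.48, before TEAD1 at 0.461 and 0.747, and YAP1 itself stood at 0.743 and 1.14.

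Most innate sensing genes were low. Of 10 Toll-like receptors, which recognise microbial molecules, only TLR5, the flagellin receptor, was detected, beside 73.4% of all named genes. TLR5 stood at 0.0603 and 0.0878. TLR4, the receptor for lipopolysaccharide, and TLR8 were listed at 0, which allows levels of 0.0171 and 0.0221 for TLR4. STING1, the adaptor of the DNA-sensing pathway, stood at 1.13 and 0.998, and its upstream enzyme CGAS had 3 and 0 tags. Of the RNA sensors, IFIH1 stood at 0.207 and 0.389 and RIGI at 0.0678 and 0.175. AIM2 was not analysed here.

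The G protein machinery was present across classes while most receptors for classical transmitters were low. GNAS, the stimulatory alpha subunit, stood at 11.3 and 16.3, the inhibitory GNAI2 at 10.7 and 8.29 and its paralogue GNAI3 at 2.55 and 4.22. GNA11 stood at 3.16 and 3.35 and GNAQ at 0.457 and 0.649, whereas GNA14, a related subunit, was listed at 0. GNB1 led the beta subunits at 14.2 and 16.8, before GNB2 at 13.5 and 7.35. Of the enzymes that make cyclic AMP, ADCY3 led at 2.48 and 3.02, before ADCY6 at 1.13 and 0.758, and ADCY4 and ADCY8 were listed at 0. For receptor desensitisation, ARRB2 held 96.2% in A and 96.5% in B of the arrestin level, at 6.17 and 5.84 against ARRB1 at 0.176 and 0.151, and GRK6 led the receptor kinases at 4.39 and 3.12, before GRK2 at 1.89 and 1.52.

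No muscarinic receptor and none of the 3 opioid receptors named here was detected, beside 73.4% of all named genes. CHRM1, CHRM2, CHRM3 and CHRM5 were listed at 0. For CHRM3 a count of 0 allows levels of 0.0351 and 0.0454. Among 4 dopamine receptors named here only DRD4 was detected, with 22 and 4 tags, beside the same 73.4%. DRD1 and DRD5 were listed at 0. Adrenergic receptors were low, with ADRA2C at 0.692 and 0.341, while ADRB3 and ADRA1D were listed at 0. The serotonin receptors HTR6, HTR1D and HTR7 were detected with at most 6 tags each, and HTR2A, HTR2C and HTR4 were listed at 0. Of the receptors for extracellular nucleotides and adenosine, P2RY11, whose tags were partly split, was at 3.76 and 1.75, P2RY1 at 0.475 and 0.548, and ADORA2B at 0.725 and 0.598, before ADORA1 at 0.209 and 0.0711, while P2RY4, P2RY14 and ADORA3 were listed at 0. The trypsin-activated receptor F2RL1 stood at 1.16 and 1.22 and the thrombin receptor F2R at 0.486 and 0.781. Of the sphingosine 1-phosphate receptors, S1PR3 stood at 0.208 and 0.26, S1PR2 at 0.256 and 0.132 and S1PR1 at 0.116 and 0.178, while S1PR4 and S1PR5 were listed at 0. Of the lysophosphatidic acid receptors, LPAR3 stood at 0.464 and 0.672, before LPAR2 at 0.286 and 0.301.

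Several ion channel families had detected members. ASIC1, an acid-sensing channel, stood at 1.6 and 1.49, before ASIC3 at 0.417 and 0.40, and ASIC2 was listed at 0. PIEZO1, the mechanically gated channel, stood at 3.48 and 2.0 and PIEZO2 at 0.126 and 0.24. P2RX5 at 2.06 and 1.97 and P2RX4 at 1.5 and 1.31 led the ATP-gated channels, and P2RX1 and P2RX3 were listed at 0. Voltage-gated sodium channels were low, with SCN9A at 0.0759 and 0.205 and SCN8A at 0.0894 and 0.121, and SCN10A was listed at 0. Of calcium channels, the low-threshold CACNA1H stood at 0.219 and 0.0979, CACNA1G at 0.0412 and 0.032, and CACNA1A, CACNA1I and CACNA1S were listed at 0. All of these voltage-gated channels lay below the median level of all named genes, 0.525, in both libraries.

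Transcription factor families showed a mixed developmental set. Among SOX factors, SOX4 stood at 18.5 and 12.97, before SOX2 at 1.74 and 2.27 and SOX9 at 2.07 and 1.42, and SOX1 was listed at 0. GATA6 led the GATA factors at 2.88 and 1.98, before GATA4 at 1.09 and 0.562, and GATA5 was listed at 0. The leading POU factors were neural: POU4F1 at 1.29 and 1.19 and POU3F2 at 0.998 and 1.45, in different order in A and B. POU1F1, POU4F3 and POU5F1 were listed at 0. ID4 at 10.7 and 13.2 and ID2 at 7.94 and 10.4 led the inhibitors of basic helix-loop-helix factors. LIN28B, an RNA-binding protein of embryonic cells, stood at 0.528 and 1.04 and LIN28A had 2.67 and 0.50 tags.

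Of 43 named nuclear receptors, 31 were detected, a share near the 73.4% of all named genes. The orphan receptors NR2F2, or COUP-TFII, and NR2F6 led: NR2F2 stood at 3.13 and 3.39 and NR2F6, first in A, at 3.34 and 2.01. PPARG, the adipogenic receptor, stood at 1.23 and 1.87, the vitamin D receptor VDR at 0.608 and 0.814 and the glucocorticoid receptor NR3C1 at 0.518 and 0.659. The oestrogen receptor ESR1 was trace, with 1 and 1 tags, and the progesterone receptor PGR was listed at 0, which allows levels of 0.00742 and 0.0096. NR1H4, NR1I2, HNF4A, NR2E3, NR5A1, NR0B1 and NR0B2 were also listed at 0. Several of these act in liver, adrenal or retina.

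Lineage genes were read in 20 lists, which hold 293 genes, 252 of them among the named genes. Of these 97 were detected, 38.5%, beside 73.4% of all named genes, and 68 were listed at 0. Detected shares were highest for nephron progenitor genes (13 of 16), epithelial markers (14 of 21), neuronal markers (16 of 25) and mesenchymal markers (14 of 23). They were lowest for adrenal cortex (0 of 9) and hepatocyte markers (0 of 10). Of the 925 genes of all family and lineage lists, 84 had no named transcript and were not analysed here. Fewer cells of a type and less RNA in each cell cannot be told apart in such bulk libraries.

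**Figure D4:**
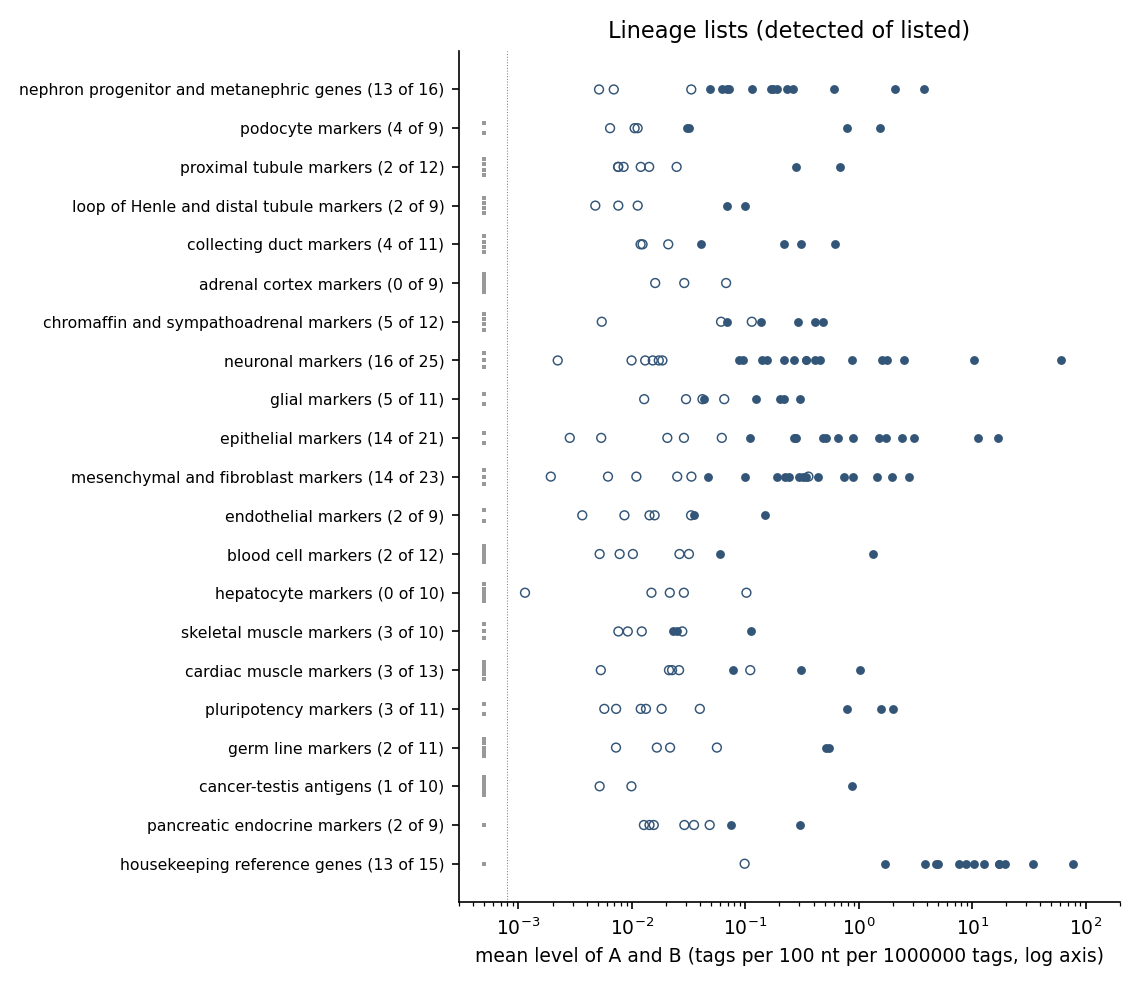
Mean level of A and B (log axis, tags per 100 nt per 1000000 tags) of each listed gene of 20 lineage lists and of the housekeeping genes; filled circles are detected genes, open circles trace genes, and grey squares left of the dotted line genes without a tag in both libraries. UCHL1 at the right of the neuronal list and EPCAM and KRT19 at the right of the epithelial list stand above every gene of the tubule, blood, liver and muscle lists.

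The nephron progenitor list was largely detected but at low levels, with a list median of 0.141. HOXD11, a homeobox gene of the metanephric mesenchyme, had 111 and 62 tags, at levels of 2.45 and 1.77. SALL1, a zinc finger factor of kidney development, stood at 0.485 and 0.715 and SIX2, which marks self-renewing progenitors, at 0.355 and 0.172. CITED1 stood at 0.232 and 0.234 and OSR1 at 0.27 and 0.109. The others detected, from GDNF at 0.154 and 0.20 to LHX1 at 0.0424 and 0.0548, had between 3 and 23 tags per library. PAX8, a factor of the renal lineage, had 0 and 1 tags. At a minimum of 10 tags in each library 5 of the 16 would be detected.

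Markers of mature nephron segments were mostly trace or at 0. Of podocyte markers PODXL stood at 1.32 and 1.74, but it also occurs in other cells. The slit diaphragm gene NPHS1 had 2 and 1 tags, and PLA2R1 was listed at 0. In the proximal tubule list only SLC5A2, the glucose cotransporter SGLT2, at 1.06 and 0.311, and the endocytic receptor LRP2, at 0.215 and 0.347, were detected. SLC34A1, SLC22A8, HNF4A and MIOX were listed at 0. In the list of the loop of Henle and distal tubule 2 of 9 genes were detected, the claudin CLDN10 with 6 and 8 tags and the calcium-binding CALB1 with 3 and 6 tags. UMOD, SLC12A1, CLDN16 and PVALB of the thick ascending limb and distal tubule were listed at 0, with upper limits for UMOD of 0.0416 and 0.0538. In the collecting duct list GATA3 stood at 0.652 and 0.585, AQP3 at 0.457 and 0.159 and ATP6V1B1 at 0.165 and 0.277, while AQP2 and AVPR2, the vasopressin-regulated water channel and its receptor, were listed at 0, like SCNN1G and CDH16.

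The adrenal lists were low. None of 9 adrenal cortex genes was detected, and NR5A1, the master regulator of steroidogenic cells, NR0B1, CYP11B1, CYP17A1, CYP21A2 and MC2R were listed at 0. The limit for NR5A1 was 0.0313 and 0.0405. In the chromaffin list 5 of 12 were detected. They were CHGA at 0.659 and 0.301, a secretory granule protein, GATA2 at 0.481 and 0.335, CHGB at 0.218 and 0.36, HAND2 at 0.15 and 0.123 and ISL1 at 0.0473 and 0.0918. DBH and DDC of catecholamine synthesis and PHOX2A were listed at 0, and TH was not analysed here.

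The highest level of the 20 lineage lists belonged to a neuronal gene. UCHL1, a deubiquitinating enzyme abundant in neurons, had 2153 and 1683 tags and levels of 60.9 and 61.6, more than 5 times those of NEFL at 9.45 and 11.2. Its GC content was 51.7% and the libraries differed little. INA stood at 2.26 and 2.8, the synaptic vesicle protein SYP at 2.07 and 1.52, STMN3 at 2.07 and 1.13 and the adhesion molecule NCAM1 at 0.701 and 1.05. Other defining neuronal genes were at or near 0. STMN2, ELAVL3 and CAMK2A were listed at 0, DCX had 0 and 1 tags, GAP43 1 and 1 tags and SYT1 2 and 2 tags. The list held 16 detected genes, 6 trace genes and 3 listed at 0, and its median, 0.155, was below that of all named genes.

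Glial genes were weaker. MBP, the myelin basic protein gene, stood at 0.251 and 0.359, OLIG1 at 0.366 and 0.0728 and OLIG2 at 0.27 and 0.133, ALDH1L1 at 0.155 and 0.0935 and AQP4 at 0.0309 and 0.056. MAG was listed at 0, and GFAP had 8 and 0 tags.

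Epithelial and mesenchymal genes were expressed side by side. EPCAM, an adhesion molecule of epithelia, stood at 14.6 and 19.2 and KRT19 at 15.1 and 7.28. DSP, desmoplakin of desmosomes, stood at 2.27 and 3.89, KRT18 at 2.52 and 2.3, the splicing regulator ESRP2 at 1.87 and 1.64 and the tight junction protein TJP1 at 1.04 and 1.98. CDH1, E-cadherin, was detected with 76 and 53 tags, below CDH2 with 303 and 353 tags. KRT5 and KRT14 of stratified epithelia were listed at 0. On the mesenchymal side, COL6A1 stood at 2.67 and 1.27, FN1, fibronectin, at 1.22 and 1.68, TWIST1 at 1.18 and 0.60, ACTA2 at 0.843 and 0.627 and SPARC at 0.528 and 0.355. The fibroblast genes THY1, COL6A3 and DCN were listed at 0, and COL1A2 had 0 and 0.50 tags against 70 and 44 tags for COL1A1. The medians of both lists, 0.279 for epithelial and 0.225 for mesenchymal genes, lay below the median of all named genes.

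Genes of other lineages were few. In the endothelial list ESAM at 0.121 and 0.179 and KDR at 0.0426 and 0.0276 were detected and TEK and ERG were listed at 0. Of the blood cell markers CD68, a lysosomal protein, stood at 1.31 and 1.36 and CD8A at 0.066 and 0.0525, whereas PTPRC, the CD45 gene of all leukocytes, CD14, SPI1 and KLF1 were listed at 0. The upper limit for PTPRC was 0.0182 and 0.0235. In the hepatocyte list TTR, SERPINA1, AFP and HNF4A were listed at 0. ALB was not analysed here. Skeletal muscle genes detected were ACTA1 at 0.0855 and 0.138, RYR1 at 0.0335 and 0.0163 and TTN at 0.021 and 0.0251. MYOD1, MYL1 and MYH2 were listed at 0. In the cardiac list NKX2-5, the homeobox factor of heart development, stood at 1.65 and 0.426, TNNI3 at 0.373 and 0.241 and RYR2 at 0.0651 and 0.0905, while MYH6, MYH7, TNNT2, NPPB and MYL2 were listed at 0.

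Of the pluripotency genes, SOX2 at 1.74 and 2.27, DNMT3B at 1.56 and 1.61 and LIN28B at 0.528 and 1.04 were detected. The core factor POU5F1 and DPPA2 were listed at 0, and NANOG, whose tags were partly split, had 3.33 and 1.42 tags. POU5F1 allows levels of 0.0686 and 0.0887 by counting, and 6 pseudogenes are named after it. In the germ line list the meiotic gene SYCP3 stood at 0.573 and 0.519 and TEX14, a protein of germ cell bridges, at 0.254 and 0.776. DAZL, NANOS2, SYCP1, TDRD1 and STRA8 were listed at 0. PRAME was the only detected cancer-testis antigen of the 10 named here, at 0.918 and 0.812, and MAGEA1, MAGEA3, MAGEC1, SSX1, SSX2, CTAG2 and PAGE4 were listed at 0. In the pancreatic endocrine list NKX6-1 stood at 0.463 and 0.15 and PDX1 at 0.10 and 0.0487, while NEUROD1 was listed at 0 and INS was not analysed here.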

How the data were processed

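Polyadenylated RNA of HEK293 was sequenced by the authors. The deposited values are expected counts of tags per transcript, which are not normalized, and an expression value that the authors computed per 100 nt of transcript and 1000000 tags, per the file headers. Recomputing this value from counts, length and total gave the deposited value. For aligner, build and annotation, versions were not given in the sources used. The files list only values above 0. Libraries were grouped by the labels. Accessions were given symbols from RefSeq and, for 134, from GENCODE 29; 8985 of 25005 transcripts stayed unnamed. GC content and pseudogene names came from GENCODE 29 transcripts and gene names.

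Detection needed at least 3 tags in each library, equal to 0.968 tags per 1000000 in A and 1.25 in B. A was set against B with exact Clopper-Pearson 95% intervals on the tags of each feature, for features with at least 10 tags over both, against the share of the totals, after a check on simulated data. Tags may not be independent molecules, so intervals and limits cover counting error only. The dispersion came from edgeR 4.0.16 on rounded counts (R 4.3.3), and DESeq2 1.42.0 gave the alternative size factors. With 1 group of 2 libraries no test between groups was possible, and no p-value is given.

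Named genes follow a rule: the 25 highest levels, the 15 with most tags, the leading and next members of families and members at 0, up to 6 detected genes and the defining genes at 0 of a lineage list, and the 10 largest ratios each way. Some genes that the rule names are not reported here. Further members named (such as EGFR and BCL2) were chosen after their values were seen. The families, lists and tests were chosen with earlier results of these data known. Promoter windows came from the RefSeq table on GRCh38.p14. Alternatives tried were other minimums of tags or level, other scalings, leaving out split tags, and leaving out A or B.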

Additional observations from a re-analysis of the deposited data

How the results depend on the processing

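The count of 14839 detected transcripts lay between 12214 with at least 10 tags in each library and 17553 with at least 1, was 13364 with a level of at least 0.1, and was 15300 without replicate A and 16502 without replicate B. Of the 252 lineage genes, 97 were detected; at least 10 tags in each library left 61, a level of 0.1 left 71, at least 1 tag gave 136, and 107 and 111 were detected without A and without B. Of 14660 features 7185 lay outside the counting interval; TMM factors gave 7241, DESeq2 size factors 7203, no minimum 7255 (33.8% of 21471), at least 50 tags 6522 (59.9% of 10884) and leaving out split tags 5643 (50.8% of 11111). Taking the expected share within GC classes, an alternative chosen after seeing the data, gave 3641 of 11370 genes against 5948 on the same genes with the totals; these alternatives test fewer genes. The 83 families with the same leading member in both libraries became 85 when tags were not divided by length, with 88 of 105 leading members as before, 83 on the TPM scale, with 104 of 105, and 76 of 96 when split tags were left out, with 83 of 96. The lead by the mean of both libraries was also first in B alone in 95 families and in A alone in 93. No paired analysis was possible because the libraries form 1 group and were compared with no other. Depth limits the lowest class: a gene needs a level of about its printed limit to reach 3 tags, and values under that were not read as absence.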
